A study of Mus musculus with 3 samples.

Results

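The miR-30 family was followed in small RNA libraries of mouse tibialis anterior (TA) muscle, which lifts the foot, on day 0 and on days 1 and 3 after cardiotoxin (CTX) injury. The 7 members are the mature miRNAs mmu-miR-30a-5p, mmu-miR-30b-5p, mmu-miR-30c-5p, mmu-miR-30d-5p and mmu-miR-30e-5p, and the opposite-arm products mmu-miR-30a-3p and mmu-miR-30e-3p, written below without the mouse prefix. They were chosen by name, without use of their values, although earlier results of these data were known. All 7 were listed in every library among 1138 mature miRNAs. All libraries came from wildtype C57BL/6 mice aged 10 weeks. CTX is a snake venom toxin that destroys myofibers and largely spares the stem cells that rebuild them. Day 0 is uninjured muscle, and the labels do not say whether it received saline.

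Each library is a pool of 4 samples, so the day 0, day 1 and day 3 groups hold 1 library each. The spread between mice could not be measured, no test across samples was possible, and no p-values are given. Differences between libraries have no replicate check. The intervals given are exact binomial 95% intervals of the reads, which cover counting error only because reads copied by PCR are not independent molecules. The libraries held 8507580, 6421056 and 9795076 miRNA reads on days 0, 1 and 3, and levels are given as counts per 1000000 reads of the library (CPM). In such bulk tissue, fewer cells of a type and less RNA per cell cannot be told apart.

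A miRNA is cut from an RNA hairpin whose left and right strands are the 5p and 3p arms. The bases 2 to 8 of the mature strand, the seed, pair with target mRNAs, so miRNAs that share a seed can share targets. The miR-30 family is expressed in many tissues, and its 5p strands are known in cultured cells for limiting fibroblast-like change, for regulating Notch and autophagy genes and for promoting myogenic differentiation.

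The sequences of the members show which ones share a seed and how small the differences between them are. RefSeq mature sequences (GRCm38.p6) matched 5 of the 7 members, all but miR-30b-5p and miR-30d-5p, and they are written 5′ to 3′ with the seed in capitals.
miR-30a-5p: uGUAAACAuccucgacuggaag
miR-30e-5p: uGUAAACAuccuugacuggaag
miR-30c-5p: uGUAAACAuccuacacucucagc
miR-30a-3p: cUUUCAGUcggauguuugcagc
miR-30e-3p: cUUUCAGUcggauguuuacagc

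The 5p strands of miR-30a, miR-30c and miR-30e share the seed GUAAACA. miR-384-5p has the same seed. miR-30b-5p and miR-30d-5p were not compared. The 3p strands of miR-30a and miR-30e have another seed, UUUCAGU. Counting from 1 at the 5′ end, miR-30a-5p and miR-30e-5p differ by 1 base, C13U, and miR-30a-3p and miR-30e-3p by 1 base, G18A. miR-30c-5p differs from miR-30a-5p at 5 bases over the shared length (C13A, G14C, G18C, G19U and A20C). How reads with a mismatch were divided between such close relatives is not given in the sources used here, so values of miR-30a and miR-30e on the same arm may share reads.

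The family is encoded by 6 hairpins in 3 clusters, located here in the GENCODE M21 annotation of GRCm38. On chromosome 1, Mir30a (chr1:23272269-23272339, plus strand) overlaps no other gene. Mir30c-2 (chr1:23291701-23291784, plus strand) lies 19361 bases away in an exon of the long noncoding RNA Gm27028. On chromosome 4, Mir30e (chr4:120772606-120772697, minus strand) and Mir30c-1 (chr4:120769534-120769622, minus strand) lie 2983 bases apart in an intron of Nfyc, the gene of a subunit of the transcription factor NF-Y. On chromosome 15, Mir30b (chr15:68337415-68337510) and Mir30d (chr15:68341208-68341289) lie 3697 bases apart on the minus strand in exons of noncoding transcripts. Both Mir30c hairpins give the same miR-30c-5p, whose reads therefore cannot be assigned to a cluster.

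Before injury the family was carried mainly by the chromosome 15 cluster. On day 0, miR-30d-5p had 20318 reads and miR-30b-5p 19290, which were 2388 CPM (95% interval 2356 to 2421) and 2267 CPM (2236 to 2300). They ranked 38 and 39 among all miRNAs by reads. miR-30a-5p followed with 13206 reads (1552 CPM) and miR-30c-5p with 6726 reads (791 CPM). miR-30e-5p was the lowest 5p member at 1116 reads and 131 CPM. Of the 3p members, miR-30a-3p had 2552 reads (300 CPM) and miR-30e-3p 1022 reads (120 CPM). The order of the 5p members on day 0 was therefore miR-30d, miR-30b, miR-30a, miR-30c and miR-30e, and no neighbours in it had overlapping counting intervals. By CPM this order was the same on day 1, and on day 3 it differed in that miR-30b-5p stood above miR-30d-5p, again without overlap. These are levels of single libraries, and how efficiently each strand is captured in library construction was not measured.

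**Figure D1:**
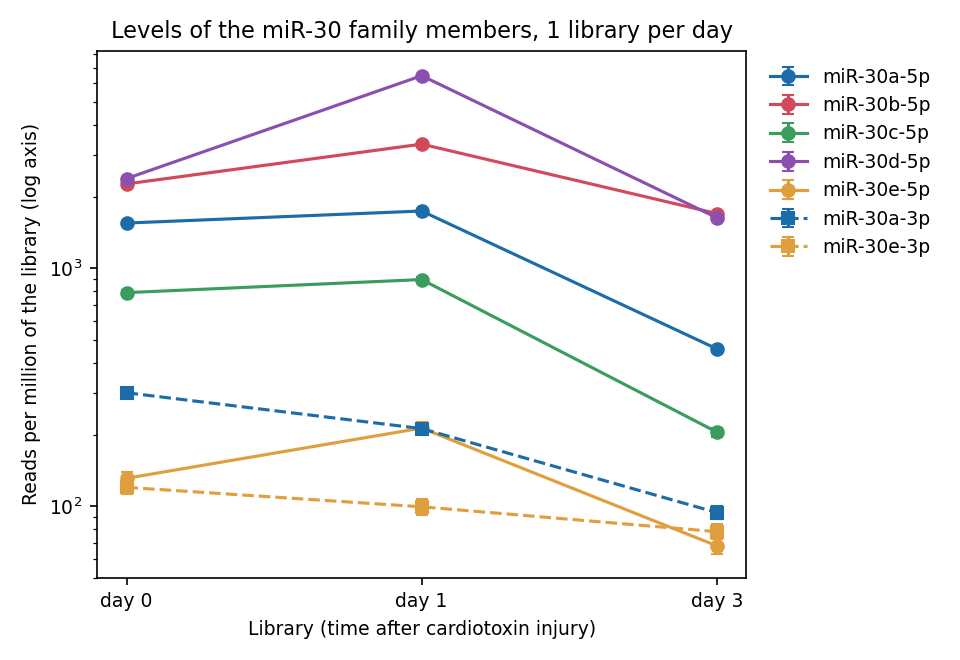
Level of each member in the day 0, day 1 and day 3 libraries (1 library per day), in CPM on a log axis. Circles and solid lines are 5p strands, squares and dashed lines are 3p strands, and bars are 95% counting intervals. All 7 members are lowest on day 3, and miR-30d-5p stands highest on day 1 at 6467 CPM.

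On day 1, the 5p strands together made up 12657 CPM (12570 to 12744), against 7130 CPM (7073 to 7186) on day 0. This sum was 1.78-fold higher relative to the library total, but the direction was not kept by every scaling. The log2 ratio was 0.83 (0.81 to 0.84) by library total, 0.51 with totals that left out the myofiber miRNAs, 0.21 with totals that left out the 10 most-read miRNAs and 0.13 in the deposited expression values. It was -0.12 with edgeR's TMM factors and -0.21 by DESeq2's median-of-ratios factors, both of which centre typical miRNAs. The median miRNA was itself 0.90 higher on the log2 scale on day 1, over 393 miRNAs that had 10 or more reads in each of these libraries. Against that median, the 5p sum stood at -0.08. The day 1 to day 0 ratio of the 5p sum was thus close to the middle of all miRNAs, with 48.3% of them having a lower ratio.

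A single member, miR-30d-5p, was higher on day 1 than on day 0 under every scaling tried. It had 20318, 41527 and 16011 reads on days 0, 1 and 3, and its level went from 2388 CPM to 6467 CPM (6405 to 6530) and then to 1635 CPM (1609 to 1660). The day 1 library was the highest of the 3, and the counting intervals of the 3 libraries did not overlap. On day 1 the log2 ratio to day 0 was 1.44 (1.41 to 1.46), and it ranged from 0.40 with median-of-ratios factors to this value over the 8 scalings and settings tried. It was the 1 member of 7 at least 2-fold higher on day 1, where 55.3% of all 532 miRNAs with at least 10 reads in either library were at least 2-fold higher. No member was at least 2-fold lower, against 12.0% of the same miRNAs. With TMM factors these calls turned over to 0 members higher and 2 lower (miR-30a-3p and miR-30e-3p), where 35.2% of the miRNAs were higher and 24.2% lower.

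The other chromosome 15 member, miR-30b-5p, had 19290, 21411 and 16669 reads on days 0, 1 and 3, or 2267, 3334 and 1702 CPM. Its log2 ratio on day 1 was 0.56 (0.53 to 0.58), and this was -0.49 with median-of-ratios factors. The ratio of miR-30d-5p to miR-30b-5p reads does not depend on scaling. Before injury it was 1.05 (1.03 to 1.07). It was 1.94 on day 1 (1.91 to 1.97), and by day 3 it was 0.961 (0.940 to 0.982). In the second deposited value, an expression value that grows more slowly than the reads, this ratio was 1.06, 1.77 and 0.970. The products of these neighbouring hairpins were thus nearly equal on days 0 and 3 and apart on day 1.

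miR-30a-5p had 13206, 11197 and 4492 reads, or 1552, 1744 and 459 CPM on days 0, 1 and 3. miR-30c-5p had 6726, 5765 and 2005 reads, or 791, 898 and 205 CPM. By CPM both were close to their day 0 level on day 1, and both were lowest on day 3. Their log2 ratios on day 1, 0.17 (0.13 to 0.20) and 0.18 (0.13 to 0.23), turned to -0.87 and -0.86 with median-of-ratios factors and were negative under 6 of the 8 settings. miR-30e-5p had 1116, 1370 and 667 reads, or 131, 213 and 68.1 CPM, with a day 1 log2 ratio of 0.70 (0.59 to 0.82) that was -0.34 with median-of-ratios factors. Relative to all miRNAs, the day 1 ratios of these 3 members lay below the median, with 31.8%, 32.3% and 45.8% of miRNAs below miR-30a-5p, miR-30c-5p and miR-30e-5p.

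Both 3p members were lower on day 1 than on day 0 under all 8 settings, which held for no 5p member. miR-30a-3p had 2552, 1361 and 921 reads on days 0, 1 and 3, or 300, 212 and 94.0 CPM. miR-30e-3p had 1022, 638 and 765 reads, or 120, 99.4 and 78.1 CPM. Their log2 ratios on day 1 were -0.50 (-0.60 to -0.41) and -0.27 (-0.42 to -0.13). Both 3p members were highest on day 0, where by CPM the 5p members were highest on day 1. The 3p strands outside the members did not all go this way by CPM. On day 1 miR-30b-3p was at 1.93 (1.08 to 2.85), miR-30d-3p at 1.05 (0.68 to 1.44) and miR-30c-1-3p at 0.38 (-0.01 to 0.77). miR-30c-2-3p was at -1.22 (-1.40 to -1.03).

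The share of a hairpin's reads on each arm compares strands within a library and needs no scaling. The 5p arm held 83.8% of all miR-30a reads before injury (83.2 to 84.4). This share was 89.2% on day 1 (88.6 to 89.7), and 83.0% at day 3 (82.0 to 84.0). The corresponding share of miR-30e was 52.2% before injury (50.1 to 54.3). It was 68.2% on day 1 (66.1 to 70.3), and 46.6% at day 3 (44.0 to 49.2). In both hairpins the 5p share was highest on day 1, and its interval there overlapped neither other day. The ratio of 5p to 3p reads went from 5.17 to 8.23 and 4.88 for miR-30a, and from 1.09 to 2.15 and 0.872 for miR-30e. On day 3 the more abundant strand of miR-30e was the 3p strand, by 765 reads against 667. Since reads of miR-30a and miR-30e on the same arm may be shared, as above, these shares may not be independent of each other, which was not tested.

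**Figure D2:**
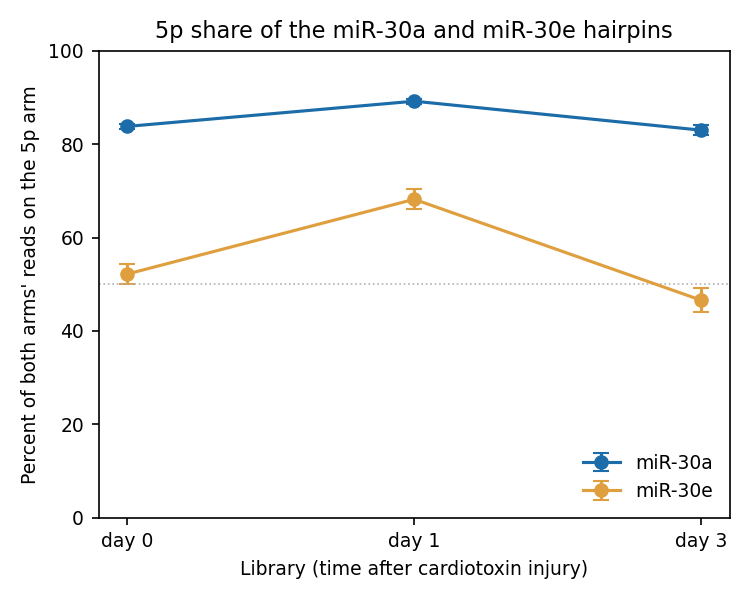
Percent of each hairpin's reads found on the 5p arm of the miR-30a and miR-30e hairpins in each library, with exact 95% counting intervals. The dotted line marks equal reads on both arms. Both hairpins are highest on day 1, at 89.2% and 68.2%.

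The 3p strands of the miR-30b and miR-30d hairpins were rare. miR-30d-3p had 97, 152 and 161 reads on days 0, 1 and 3, and miR-30b-3p had 16, 46 and 71. For miR-30d the 5p arm held 99.5%, 99.6% and 99.0% of the reads, and for miR-30b 99.9%, 99.8% and 99.6%. The miR-30b hairpin did not show the higher 5p share on day 1, since it had 1206, 465 and 235 reads of the 5p strand per 3p read on days 0, 1 and 3. This ratio rests on 16 reads of the 3p arm on day 0.

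On day 3 all 7 members were lower than on day 0, and each was lower under all 8 settings. The 5p sum was 4068 CPM (4028 to 4108), with a log2 ratio to day 0 of -0.81 (-0.83 to -0.79). By library total this was 1.75-fold lower. Among the members, 3 were at least 2-fold lower (miR-30a-5p, miR-30a-3p and miR-30c-5p) and 0 at least 2-fold higher, where 10.0% of 569 miRNAs were at least 2-fold lower and 58.5% at least 2-fold higher. The median log2 ratio of the 7 members was -0.95, and that of 407 miRNAs with 10 or more reads in each of these libraries was 0.93. The number of members at least 2-fold lower was 6 with totals that left out the 10 most-read miRNAs, where 16.3% of the miRNAs were, and 7 with TMM factors, where 22.1% were.

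The members differed in how far below day 0 they were on day 3, and the differences between them are the same under any scaling of the reads. miR-30c-5p was lowest, at a log2 ratio of -1.95 (-2.02 to -1.88), which is 3.86-fold lower. miR-30a-5p was at -1.76 (-1.81 to -1.71) and miR-30a-3p at -1.67 (-1.78 to -1.56), so both arms of the chromosome 1 hairpin were lower by a similar factor. miR-30e-5p was at -0.95 (-1.09 to -0.81) and miR-30e-3p at -0.62 (-0.76 to -0.48). The chromosome 15 products were least changed, miR-30d-5p at -0.55 (-0.58 to -0.52) and miR-30b-5p at -0.41 (-0.44 to -0.38). The range from miR-30c-5p to miR-30b-5p was 1.54 on the log2 scale.

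The 3p strands of the 2 Mir30c hairpins differ by 3 bases and show their hairpins separately, although they are not among the 7 members. miR-30c-2-3p, from chromosome 1, had 992, 322 and 494 reads on days 0, 1 and 3, or 117, 50.1 and 50.4 CPM. miR-30c-1-3p, from the Nfyc intron on chromosome 4, had 114, 112 and 235 reads, or 13.4, 17.4 and 24.0 CPM. The ratio of miR-30c-2-3p to miR-30c-1-3p was 8.70 before injury (7.16 to 10.7). One day later it was 2.88 (2.31 to 3.60), and at day 3 it was 2.10 (1.80 to 2.47). The chromosome 1 strand thus outnumbered the chromosome 4 strand in every library, by most on day 0. miR-384-5p, which has the seed of miR-30a-5p, had 106, 194 and 88 reads, or 12.5, 30.2 and 8.98 CPM.

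From day 1 to day 3, TMM and median-of-ratios factors moved the ratios by 0.02 and -0.08 on the log2 scale, and totals without the myofiber miRNAs by 0.33. The 5p sum was 3.11-fold lower on day 3 than on day 1, with a log2 ratio of -1.64 (-1.65 to -1.62) and a range of -1.72 to -1.22 over the 8 settings. Of the 7 members, 5 were at least 2-fold lower and 0 at least 2-fold higher, where 17.7% of 583 miRNAs were at least 2-fold lower and 25.0% at least 2-fold higher. The median log2 ratio of the members was -1.65, beside -0.05 for 476 miRNAs.

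miR-30c-5p was 4.39-fold lower on day 3 than on day 1, miR-30d-5p 3.96-fold, miR-30a-5p 3.80-fold and miR-30e-5p 3.13-fold. These 4 members had ratios below all but 2.31%, 3.57%, 3.99% and 6.72% of the miRNAs. miR-30a-3p was 2.25-fold lower, with a log2 ratio of -1.17 (-1.29 to -1.05). miR-30b-5p, at -0.97, was just short of the 2-fold limit. miR-30e-3p changed least, at -0.35 (-0.50 to -0.19), and it reached -0.02 with totals that left out the myofiber miRNAs.

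**Figure D3:**
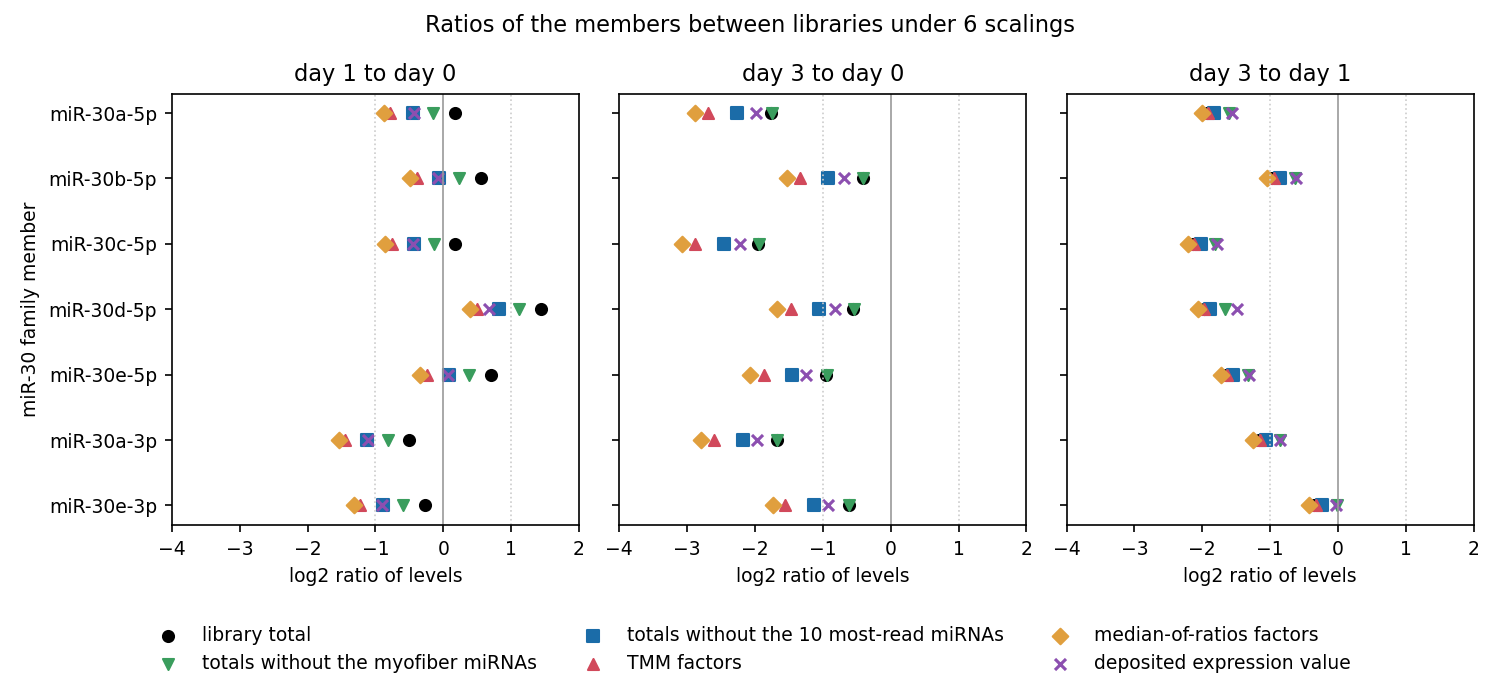
Log2 ratio of each member between libraries with reads scaled to the library total, to totals without the myofiber miRNAs or the 10 most-read miRNAs, with TMM or median-of-ratios factors, and from the deposited expression value scaled to its total. Dotted lines mark 2-fold. On day 1 the points of 4 of the 5 5p members lie on both sides of 0 while miR-30d-5p stays above it, and on day 3 all points lie below 0.

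**Figure D4:**
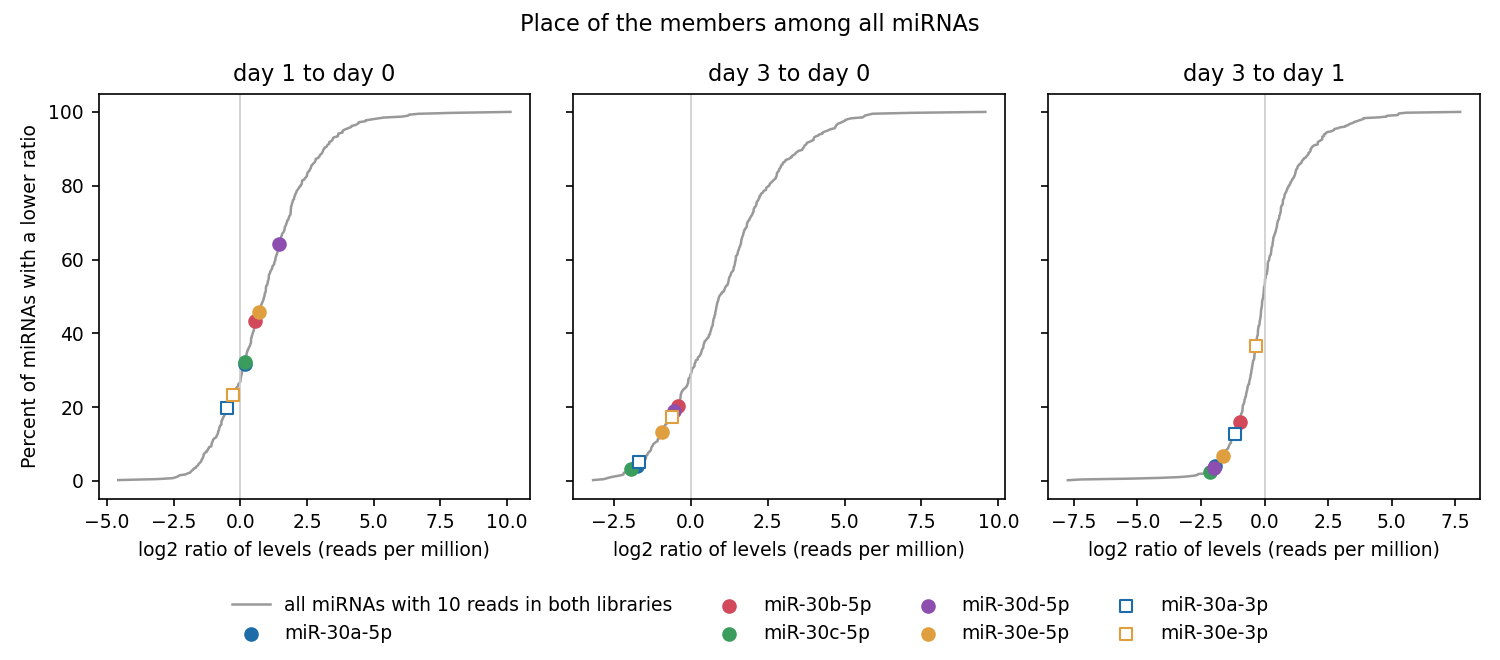
Cumulative distribution of the log2 ratio of CPM over all miRNAs with 10 or more reads in each library compared (grey line), with the miR-30 members marked (circles 5p, open squares 3p). In the comparison of day 3 with day 0 the members lie between 3.19% and 20.4% of the way up, and on day 1 they spread from 19.8% to 64.1%.

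The make-up of the family changed along with its sum. miR-30d-5p held 33.5% of the 5p reads before injury (33.1 to 33.9). Its share was 51.1% on day 1 (50.8 to 51.4), and 40.2% at day 3 (39.7 to 40.7). miR-30b-5p held 31.8% (31.4 to 32.2), 26.3% (26.0 to 26.6) and 41.8% (41.4 to 42.3), and was the leading member on day 3. miR-30a-5p went from 21.8% to 13.8% and 11.3%, and miR-30c-5p from 11.1% to 7.09% and 5.03%. miR-30e-5p made up 1.84%, 1.69% and 1.67%, with intervals that overlapped in all 3 libraries. The ratio of miR-30b-5p to miR-30c-5p, 2.87 before injury (2.79 to 2.95), was 3.71 on day 1 (3.61 to 3.82), and 8.31 at day 3 (7.94 to 8.71).

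**Figure D5:**
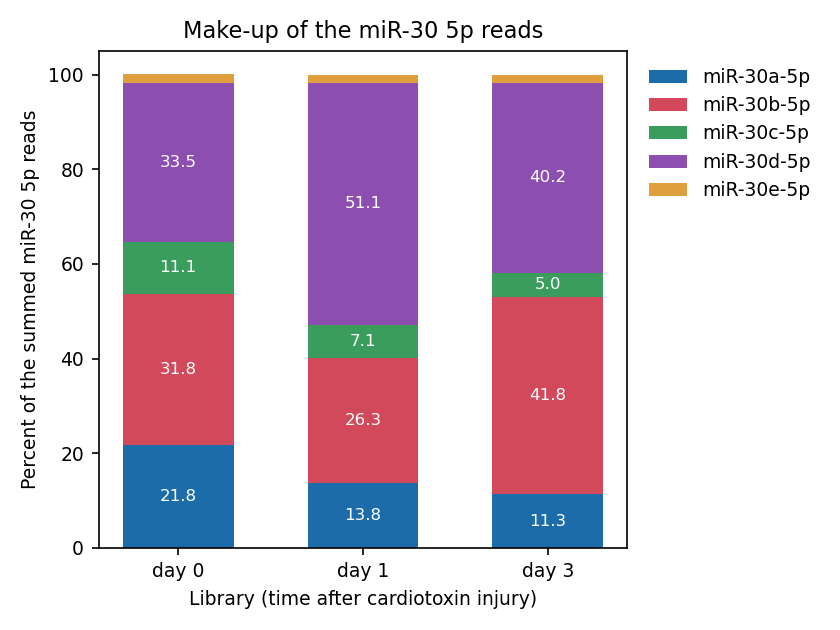
Percent of the summed reads of the 5p members held by each member in the day 0, day 1 and day 3 libraries. miR-30d-5p is the largest part on day 1 at 51.1%, and the parts of miR-30a-5p and miR-30c-5p are smaller on day 3, at 11.3% and 5.03%, than on the other days.

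Other widely expressed families were set beside miR-30. The 9 let-7 5p miRNAs summed to 62671 CPM on day 0, 112238 on day 1 and 170899 on day 3. Their log2 ratio from day 1 to day 3 was 0.61, where that of the miR-30 5p sum was -1.64. The 3 miR-29 3p miRNAs were at 2764, 2940 and 2855 CPM, and the 2 miR-26 5p miRNAs at 69658, 61907 and 42726 CPM. No test of these differences between families was possible with 1 library per day.

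By the distance between their 2 log2 ratios to day 0, the 5 miRNAs most like the miR-30 5p sum, among 98 others with at least 1000 reads in each of the 3 libraries, were miR-150-5p (distance 0.24), miR-139-5p (0.25), miR-143-3p (0.35), miR-26b-5p (0.45) and miR-181a-5p (0.51). miR-150-5p, a miRNA of mature lymphocytes and part of the leukocyte list below, was at 4733, 8307 and 3197 CPM. By CPM it was the 1 of the 7 listed leukocyte miRNAs that was lower on day 3 than on day 0. miR-143-3p, a miRNA of smooth muscle, was at 34278, 62189 and 24829 CPM. This likeness is a description over 3 libraries.

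Marker miRNAs of the cell types in muscle also differed between the libraries. The 9 myofiber miRNAs, which include miR-1a-3p and miR-133a-3p, each had at least 1 read in every library and held 27.3%, 9.15% and 27.6% of the reads on days 0, 1 and 3. By CPM all 9 were lower on day 1 than on day 0. The log2 intervals of miR-133a-5p (-2.59 to 0.19) and miR-208b-3p (-7.22 to 1.74) included 0, so their direction was within counting error. miR-1a-2-5p (-8.60 to -0.42) rested on 12 reads on day 0 and 1 on day 1. The direction of the others has no replicate check, with 1 library per day. On day 3, 180001 CPM of the myofiber sum came from miR-206-3p, a miRNA of regenerating fibers, and 7 of the 9 were lower than on day 0. Among these 7, the log2 intervals of miR-1a-2-5p (-2.90 to 0.32) and miR-133a-5p (-1.82 to 0.34) included 0. The 7 leukocyte miRNAs summed to 5355, 21028 and 9269 CPM, and miR-150-5p, singled out after its values were seen, held 88.4%, 39.5% and 34.5% of their reads. The other 6 summed to 622, 12721 and 6072 CPM. By CPM all 7 were higher on day 1 than on day 0 and 6 of the 7 on day 3, but against the median of all miRNAs the log2 ratios of miR-150-5p and miR-155-5p on day 1 were -0.09 and -0.13. miR-146a-5p was highest on day 3, at 2524 CPM. The 2 endothelial miRNAs summed to 59427, 132923 and 58732 CPM, and by CPM both were higher on day 1 than on day 0. On day 3 miR-126a-3p was near its day 0 level, at a log2 ratio of -0.01 (-0.02 to -0.01). miR-126a-5p was at -0.20 (-0.24 to -0.17). The 3 stromal miRNAs summed to 2020, 3692 and 6244 CPM. No miRNA of these lists was at 0 reads in any library, and the part of these cell types in the miR-30 values was not tested.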

How the data were processed

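Small RNAs of 18 to 30 nucleotides were sequenced by the authors on the BGISEQ platform from 4 samples pooled into 1 library per time point, and clean reads were aligned to GRCm38.p6. The submitters' processing notes name HISAT and Bowtie2. The authors deposited for each miRNA the read count, without normalization, and a second column of expression values, handled as a score. This score is a whole number at or below the read count, and how it was made is not given in the sources used here. Over all miRNAs it summed to 30.4%, 47.0% and 37.7% of the reads on days 0, 1 and 3, and for the members to between 80.6% and 99.7%.

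Read counts were divided by the library total (CPM). Log2 ratios carry exact conditional binomial 95% intervals, CPM and shares exact binomial ones. A replicated count model could not be fitted with 1 library per group, and the study's fold change of 2 was used without a p. The limit for a count of 0 is 3 reads, or 0.353, 0.467 and 0.306 CPM on days 0, 1 and 3. Alternatives were TMM factors, median-of-ratios factors, totals without the 10 most-read or the 9 myofiber miRNAs, the deposited score, 1 CPM added, other fold and read limits, and, added after seeing the data, subtraction of the median ratio.

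The members and lists were chosen with earlier results of these data known. Named miRNAs were the 7 members, the other listed miR-30 strands, miRNAs sharing the 5p seed, the 5 nearest in pattern, and the comparison and marker lists. Factors came from edgeR 4.0.16 (TMM) and DESeq2 1.42.0 (median of ratios) in R 4.3.3. The intervals were computed with scipy 1.17.1 in Python 3.11.15.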

Additional observations from a re-analysis of the deposited data

Results flagged for a closer look

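Scaled to the library total, all 5 of the 5p members were above day 0 on day 1 and below day 0 on day 3. Their counting intervals were clear of 0 on both days. The median log2 ratio of all miRNAs was itself 0.90 on day 1 and 0.93 on day 3. Of these members, only miR-30d-5p was above that median on day 1. The log2 ratios on day 1 and day 3 were 0.17 and -1.76 for miR-30a-5p, 0.56 and -0.41 for miR-30b-5p, 0.18 and -1.95 for miR-30c-5p, 1.44 and -0.55 for miR-30d-5p, and 0.70 and -0.95 for miR-30e-5p. Both ratios of a member share the day 0 library, and the difference between them was not tested because each day has 1 library. For miR-30d-5p alone among these 5 the opposite directions were kept by all 8 scalings and settings. Both 3p members were below day 0 on both days.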

How the results depend on the processing

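No paired analysis was possible because each time point has 1 library, and for the same reason no replicate could be left out. Depth limits the rare strands most, such as miR-30b-3p at 16 reads on day 0. TMM factors, median-of-ratios factors, totals without the 10 most-read miRNAs and totals without the myofiber miRNAs moved every log2 ratio of day 1 to day 0 by -0.94, -1.04, -0.62 and -0.32. In that order, the 5p sum was at -0.12, -0.21, 0.21 and 0.51 on day 1, and at -1.62, -1.72, -1.53 and -1.31 between days 1 and 3. On day 3 against day 0 it was -1.74, -1.93 and -1.32 under the first 3. With the deposited expression values the 3 ratios were 0.13, -1.09 and -1.22, and with the median of all miRNAs subtracted they were -0.08, -1.74 and -1.58.

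The number of members past 2-fold on day 1 was 1 by library total (miR-30d-5p, higher). At 1.5-fold it was 2 higher (miR-30d-5p and miR-30e-5p), where 62.4% of all miRNAs were, and at 4-fold 0, where 33.8% were higher and 2.44% lower. It was 2, miR-30a-3p and miR-30e-3p, both lower, with TMM factors, median-of-ratios factors and the median subtracted, where 24.2%, 25.9% and 23.7% of all miRNAs were lower. It was 1, miR-30a-3p, lower, without the 10 most-read miRNAs and in the expression values, where 20.7% and 20.1% were lower. These counts of lower members lie near the shares of all miRNAs.

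On day 3 against day 0, all members called were lower. They numbered 3 by library total, and 7 with TMM factors, median-of-ratios factors and the median subtracted, where 22.1%, 24.8% and 22.1% of all miRNAs were lower. Without the 10 most-read miRNAs there were 6 (16.3% of all miRNAs), in the expression values 4 (13.9%), at 1.5-fold 5 (15.3%) and at 4-fold 0 (3.16%). Between days 1 and 3, 5 were lower by library total, where 17.7% of all miRNAs were, and from 4 to 6 under the other scalings and in the expression values, where from 12.3% to 19.4% were. At 1.5-fold 6 were lower (27.1% of all miRNAs) and at 4-fold 1, miR-30c-5p (5.83%). The 5p share of miR-30a was 82.9% on day 0 and 88.6% on day 1 in the expression values. Of the 5 miRNAs nearest in pattern, 3 were kept with a minimum of 100 reads.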
